A study of Mus musculus with 32 samples.

Results

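The transcripts of 5 subunits of the phagocyte NADPH oxidase, Cybb, Cyba, Ncf1, Ncf4 and Rac2, were followed in the immortalised mouse microglial line BV-2. They were taken by gene name, 5 of the 45706 genes in the deposited table, and all 5 were found and measured in every library. The 32 libraries form 8 groups of 4, treated for 24 h with vehicle (VEH) or with 10 ng/ml of lipopolysaccharide (LPS), a component of bacterial outer membranes to which microglia respond. In each condition the cells carried a scramble mimic, which serves as the control, or a mimic of miR-7a, miR-29a or miR-146a (written VEH_scramble or LPS_miR-7a, for example, by condition and mimic). A mimic is a synthetic RNA duplex that supplies the mature microRNA to the cell, so every group, controls included, was transfected. All libraries come from 1 wild-type cell line, and the labels and the methods differ on whether LPS came before or after transfection. The labels enter the cell type of BV-2 as glioblastoma, whereas 10 of 12 microglia and macrophage markers averaged at least 1 CPM (1 count in 1e+06 of the library, after TMM scaling) over the libraries.

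The phagocyte NADPH oxidase moves electrons from NADPH inside the cell to oxygen outside it or in the phagosome, which yields superoxide. Its membrane part is a heterodimer of gp91phox, the electron-carrying chain encoded by Cybb, and p22phox, encoded by Cyba, and each chain stabilises the other. In resting phagocytes cytosolic subunits, among them p47phox (Ncf1) and p40phox (Ncf4), wait as a complex. On stimulation they move to the membrane, where the small GTPase Rac2 (or its relative Rac1) completes the enzyme. In microglia this enzyme is known as a main source of the oxidative burst during phagocytosis and inflammation.

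The 3 mimics differ in the seed, bases 2 to 8 of the mature microRNA, which pairs with matching letters in target transcripts. The sequences are shown because the mimics define the groups, as given by RefSeq (GRCm38.p6), with the seed in capitals.
miR-7a: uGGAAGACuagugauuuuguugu
miR-29a: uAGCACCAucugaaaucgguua
miR-146a: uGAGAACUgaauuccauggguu
None of the 3 seeds is shared with another. The 7 letters that pair with a seed (GTCTTCC for miR-7a, TGGTGCT for miR-29a and AGTTCTC for miR-146a) were searched for in the longest annotated 3′ UTR of each gene. Cybb (2965 bases), Cyba (102), Ncf1 (1690), Ncf4 (189) and Rac2 (2321) held 0 matches to any of them, as did Rac1 (3341). Over 11196 genes tested for differences in these libraries, 14% had a match for miR-7a, 15.5% for miR-29a and 12.5% for miR-146a. This says only that these letters are not in these windows.

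Depth differed widely between libraries, from 1.20e+06 to 2.08e+07 counts, and 3 counts correspond to 0.137 to 3.90 CPM. In the reading of the deposited values used here, the lowest count of Cybb in any library was 234. In VEH_miR-7a, 3 libraries stood apart, with 35.6% to 39% of their counts in small structural RNA genes, against 4.32% in replicate 1 of that group and 2.99% to 19.3% in the other 28 libraries. With library sizes from protein-coding genes alone, the mean of Cybb in that group was 314 CPM instead of 258 CPM. The log2 difference of Cybb between VEH_miR-7a and VEH_scramble was -0.91 with those sizes and -0.90 without them. Neutrophil markers, which would accompany cells known for this oxidase, were near 0: all 5 together summed to at most 0.476 CPM in a library, and S100a9 was listed at 0 in all 32.

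Cybb (ENSMUSG00000015340, chromosome X, 9435252 to 9487771, minus strand, GRCm38) varied most among the 5 transcripts, 6.28-fold between its lowest and highest library. Its levels in VEH_scramble were 600.4, 367, 437 and 520.2 CPM in replicates 1 to 4. Under LPS with the scramble mimic they were 986, 1110.2, 896 and 1029.5 CPM. All LPS_scramble libraries lay above all VEH_scramble libraries, with means of 1005 ± 89.4 and 481 ± 101 CPM (SD, n = 4 each). VEH_miR-7a held the lowest values, at 257, 237, 231 and 304 CPM, and LPS_miR-7a held 722, 688, 546 and 793 CPM. With miR-29a the values were 484, 394, 387 and 468 CPM under vehicle and 1453, 1295, 1351 and 975 CPM under LPS. So LPS libraries lay above vehicle libraries for these mimics too. With miR-146a, Cybb stood at 622, 693, 553 and 551 CPM under vehicle and at 1061, 1119, 1022 and 803 CPM under LPS, again without overlap. From the highest mean to the lowest the order was LPS_miR-29a, LPS_scramble, LPS_miR-146a, LPS_miR-7a, VEH_miR-146a, VEH_scramble, VEH_miR-29a and VEH_miR-7a. Neighbours overlapped in their libraries except at 2 steps, from LPS_miR-146a to LPS_miR-7a and from VEH_miR-29a to VEH_miR-7a.

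Cyba (ENSMUSG00000006519, chromosome 8, 122424776 to 122432930, minus strand) ran the other way. It measured 431, 555, 722 and 648 CPM in VEH_scramble and 300.2, 341, 408 and 351 CPM in LPS_scramble, so that every LPS_scramble library lay below every VEH_scramble library. With miR-7a it measured 558, 549.6, 544 and 693 CPM under vehicle and 401, 459.7, 645 and 548 CPM under LPS, and here the groups overlapped. The miR-29a libraries gave 436, 506, 415 and 439.6 CPM under vehicle and 339, 351, 256 and 414 CPM under LPS, with no overlap by a narrow margin. The miR-146a libraries gave 432, 472, 505 and 577 CPM against 398, 374, 357 and 538 CPM, with overlap. Cyba lies wholly within the span of a gene model on the opposite strand, Gm20388, which reached at most 84.6 CPM. The sources used here do not give whether reads were counted by strand, so the 2 cannot be told apart with certainty. The order of group means ran from VEH_scramble (589 ± 125 CPM) to LPS_miR-29a (339.7 ± 64.9 CPM; SD, n = 4 each), and all neighbours in it overlapped.

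**Figure D1:**
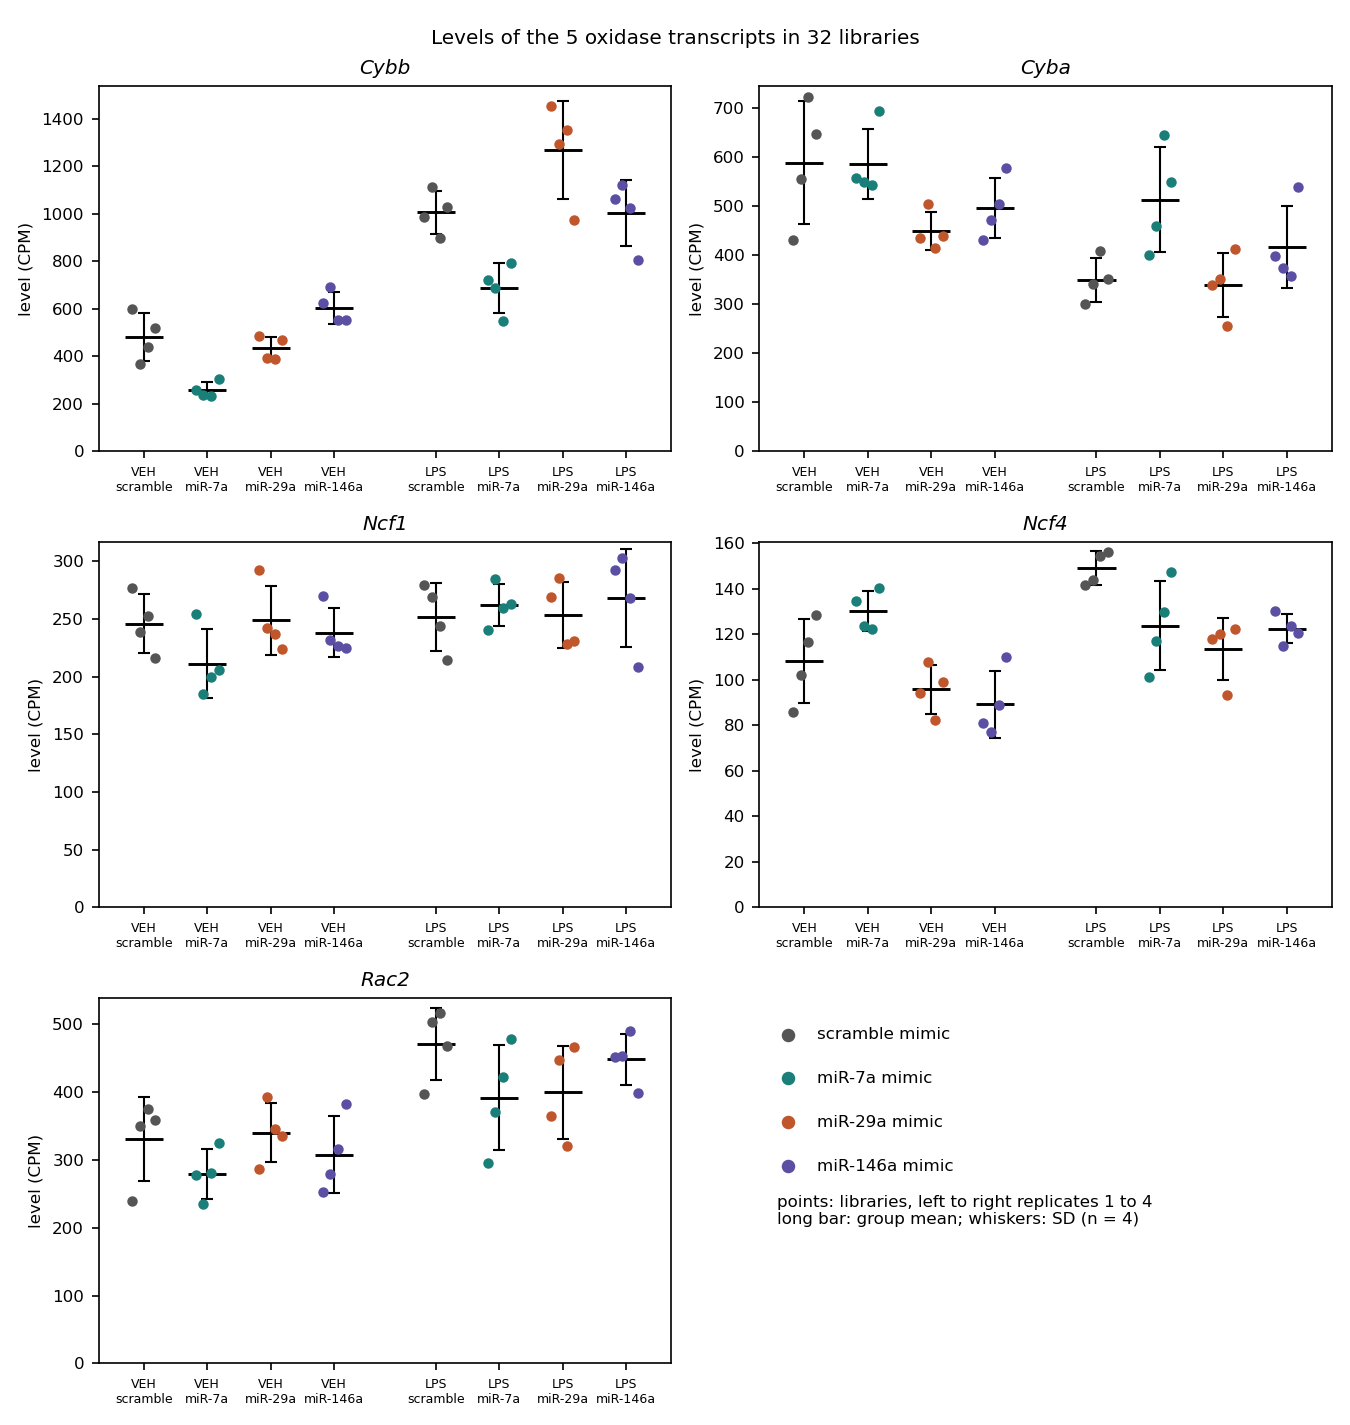
Levels in CPM (vertical axes, from 0) of the 5 oxidase transcripts in each of the 8 groups (horizontal axes). Points are libraries, long bars are group means and whiskers are SD (n = 4); all 4 LPS_scramble libraries of Cybb (896 to 1110.2 CPM) sit above the VEH_scramble libraries (367 to 600.4 CPM), those of Cyba sit below theirs, and Ncf1 stays between 185 and 303 CPM in all libraries.

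Ncf1 (ENSMUSG00000015950, chromosome 5, 134220053 to 134229625, minus strand), the organiser p47phox, varied least. Its 8 group means lay between 211 CPM (VEH_miR-7a) and 268 CPM (LPS_miR-146a), a ratio of 1.27, and all neighbours in the order overlapped. In VEH_scramble it measured 277, 239, 253 and 216 CPM and in LPS_scramble 279, 269, 244 and 214 CPM, which is nearly the same set of values. Part of Ncf1 (4303 bases) overlaps Gtf2ird2 on the opposite strand, which reached at most 18.9 CPM.

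Ncf4 (ENSMUSG00000071715, chromosome 15, 78244801 to 78262580, plus strand), which encodes p40phox, had the lowest CPM. It measured 85.8, 102, 116 and 129 CPM in VEH_scramble and 142, 144, 155 and 156 CPM in LPS_scramble, without overlap. The 4 LPS_scramble libraries also lay narrowly above all libraries of the next group, VEH_miR-7a (135, 124, 122 and 141 CPM). Below that every pair of neighbours overlapped, down to VEH_miR-146a with a mean of 89.3 ± 14.6 CPM (SD, n = 4).

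Rac2 (ENSMUSG00000033220, chromosome 15, 78559167 to 78572783, minus strand) is the Rac GTPase of blood-lineage cells. It measured 239, 350.2, 375 and 358 CPM in VEH_scramble and 398, 503, 516 and 468 CPM in LPS_scramble, again without overlap. With miR-146a the groups were also apart, with 252, 279, 316 and 383 CPM under vehicle and 452, 453, 490.3 and 399 CPM under LPS. With miR-7a (means 279.6 and 392 CPM) and miR-29a (340.1 and 399.7 CPM) they overlapped. The 4 LPS groups held the 4 highest means, and 12 of the 16 LPS libraries lay above the highest vehicle library of any group, as did 14 of 16 for Cybb.

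Per length of exon, the order of the 5 transcripts was another one. Levels were divided by the kilobases of exon sequence of each gene, a length that counts every annotated exon and so may overstate the transcript in use. On this scale, CPM per kb, Cyba was the highest of the 5 in all 32 libraries, between 246 and 695. In VEH_scramble it averaged 567 ± 121 CPM per kb, and Cybb averaged 82.8 ± 17.4 CPM per kb (SD, n = 4 each). Under LPS with scramble the same averages were 337 ± 42.7 and 173 ± 15.4 CPM per kb (SD, n = 4 each), so the 2 subunits of the heterodimer lay closer together. Ncf4 was the lowest of the 5 in 23 libraries, Ncf1 in 5 and Cybb in 4.

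**Figure D2:**
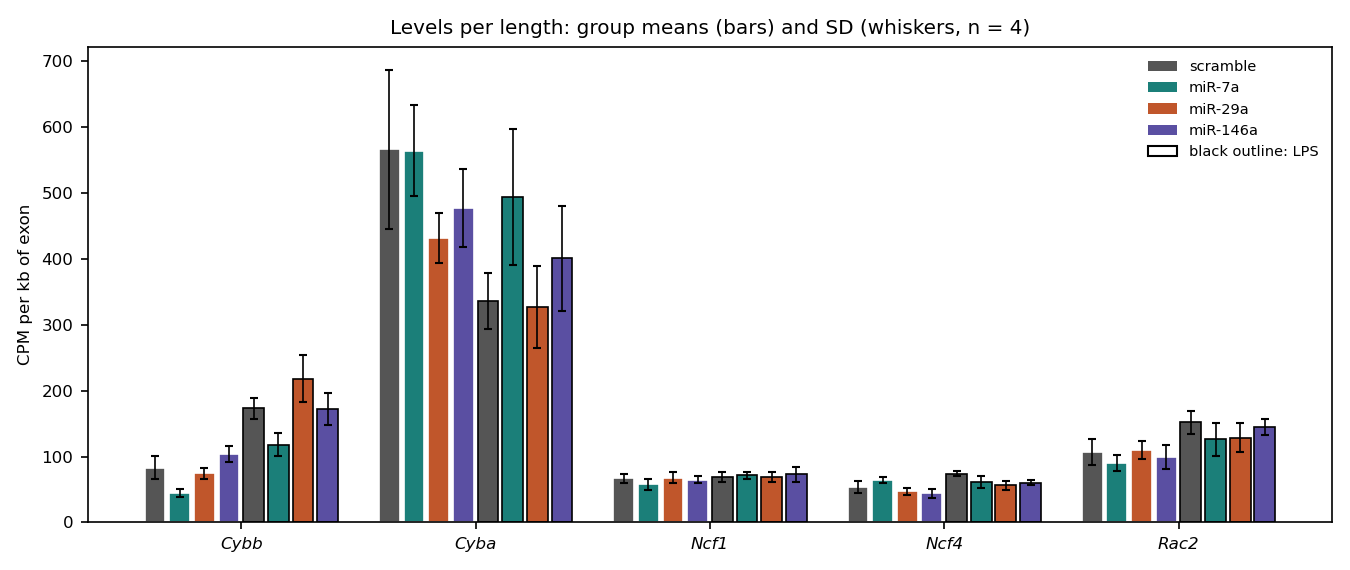
Group means in CPM per kb of exon (vertical axis, from 0) for the 5 transcripts, with SD as whiskers (n = 4) and LPS groups outlined in black. Cyba is the tallest in every group, from 327 to 567 CPM per kb, and Cybb spans 44.3 to 218 CPM per kb.

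The comparison of LPS with vehicle asked how activation acts on the oxidase transcripts with each mimic. Cybb rose in all 4 comparisons, while Cyba fell with the scramble mimic. The 4 comparisons share no library. They are not independent, since decimal marks lost from the deposited values were put back with the groups tied to each other. With scramble, 2 of 5 members passed (18.3% of 12073 genes tested did), with 1 higher and 1 lower. Cybb had a log2 fold change of 1.06 (SE 0.17, limma adjusted p 0.00139), and all 4 same-numbered pairs were higher under LPS. The direction rests on how lost decimal marks in the deposited values were put back. Cybb gave -0.85 on the values as deposited and -1.53 under a simpler rule that took the reading nearest to the median of the gene, neither of them called. That rule read 16 of the 32 Cybb values otherwise and 0 values of the other 4 members. In the reading used here 9 of the 32 Cybb values had lost 3 decimals and the rest were whole. Cyba fell by 0.77 on the log2 scale (SE 0.18, limma adjusted p 0.0128), lower in 4 of 4 pairs. Without LPS_scramble replicate 1, the shallowest library of that group, the difference of Cyba was -0.67 with a limma adjusted p of 0.0539 and no longer passed. Ncf4 (0.45, SE 0.15, limma adjusted p 0.059) and Rac2 (0.49, SE 0.18, limma adjusted p 0.0753) missed the threshold. Their groups did not overlap. Whether groups overlap is given throughout as a description, since it was not counted over all genes. Ncf1 gave 0.01 (SE 0.14, limma adjusted p 0.975). Same-numbered libraries of these groups deviated together, and with the replicate number as a block 4 of 5 members passed, against 26% of all genes. The 2 additional ones were Ncf4 (limma adjusted p 0.0218) and Rac2 (limma adjusted p 0.0115). In bulk RNA, a change in the number of cells that make a transcript cannot be told apart from a change in the transcript per cell.

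With miR-7a, Cybb alone passed (1 of 5, against 6.81% of 11659 genes), with a log2 fold change of 1.41 (SE 0.15, limma adjusted p 0.000193). Leaving out each of the 8 libraries kept it between 1.33 and 1.51, and protein-coding library sizes left it called, whereas the simpler rule for decimal marks gave -0.31. The difference of Rac2 was 0.47 (SE 0.17, limma adjusted p 0.128) and that of Ncf1 0.28 (SE 0.14, limma adjusted p 0.275). With miR-29a, Cybb showed its highest value, 1.51 (SE 0.15, limma adjusted p 4.58e-05), and again was the 1 member of 5 to pass, against 26.8% of 12038 genes. Cyba, at -0.44 (SE 0.16), just missed with a limma adjusted p of 0.0525. With the block it passed (limma adjusted p 0.01), which made 2 of 5 against 37.9% of all genes. With miR-146a, Cybb rose by 0.70 (SE 0.14, 1.62-fold, limma adjusted p 0.0102), once more as 1 of 5 against 4.62% of 11877 genes, and the simpler rule for decimal marks gave -0.17. Rac2 gave 0.53 (SE 0.14, limma adjusted p 0.0539) and Ncf4 0.43 (SE 0.14, limma adjusted p 0.105), and both had LPS libraries wholly above the vehicle libraries. The block brought Rac2 past the threshold (limma adjusted p 0.0391), which made 2 of 5 against 7.22% of all genes.

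The median log2 fold change of the 5 members under LPS was 0.45 for scramble, 0.28 for miR-7a, 0.20 for miR-29a and 0.43 for miR-146a. Over all genes tested the same medians were 0.00, 0.02, -0.01 and -0.02. Kdr, an endothelial marker, moved with Cybb, from 104 to 217 CPM in vehicle libraries to 214 to 310.2 CPM in LPS libraries. The other 3 endothelial markers (Pecam1, Cldn5 and Cdh5) reached at most 3.33, 0.0785 and 0.5 CPM, and the part of any of them in the rise of Cybb was not tested. The sum of the 12 microglia and macrophage markers ranged from 3177 to 4778 CPM in vehicle libraries and from 2694 to 4289 CPM in LPS libraries. Its members moved both ways. Adgre1, one of the 12, went from 365 to 686 CPM in vehicle libraries to 766 to 1351 CPM in LPS libraries and passed in all 4 comparisons. Trem2 went from 237 to 516 CPM down to 95.0 to 175 CPM and Tyrobp, its signalling adaptor, from 383 to 791 CPM down to 148 to 350 CPM, and both fell in all 4. Of the 10 markers tested, 2 rose and 3 fell with scramble, 2 and 2 with miR-7a, 1 and 4 with miR-29a, and 1 and 2 with miR-146a (limma, beside 18.3%, 6.81%, 26.8% and 4.62% of all genes). Csf1r was among those that fell with scramble and miR-29a. Itgam rose with scramble and fell with miR-29a, and Tmem119 rose with miR-7a. The part of these markers in the member results was not tested.

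**Figure D3:**
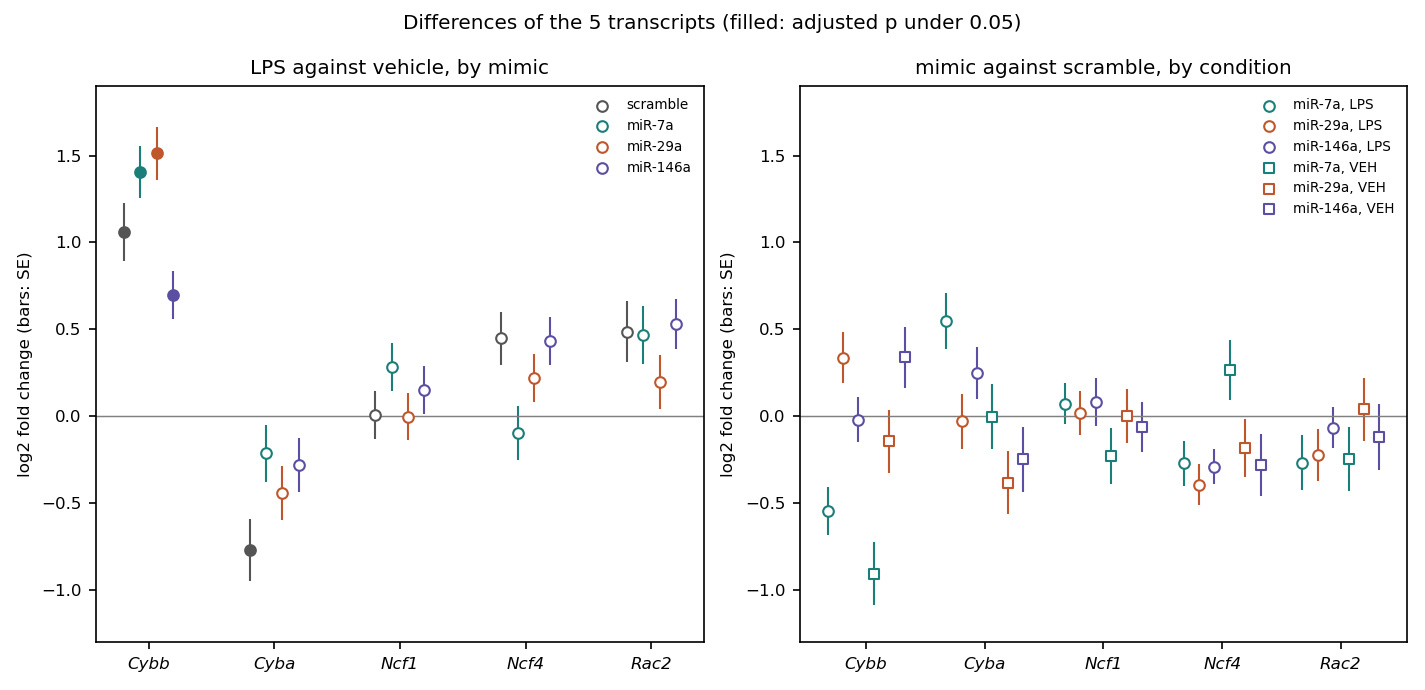
Log2 fold changes (vertical axes) of the 5 transcripts with SE as bars, on the left for LPS against vehicle within each mimic and on the right for each mimic against scramble in each condition. Filled symbols passed an adjusted p of 0.05 (Cybb in all 4 LPS comparisons, from 0.70 to 1.51, and Cyba at -0.77 with scramble); no symbol on the right is filled.

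Whether the mimics act on the oxidase transcripts was asked against scramble within each condition, and the 3 mimics of a condition share the same 4 scramble libraries. No member passed in any of these 6 comparisons (limma). The lowest adjusted p under LPS was that of Cybb with miR-7a, which measured 687 ± 104 CPM against 1005 ± 89.4 CPM with scramble (SD, n = 4 each), without overlap. Its log2 fold change was -0.54 (SE 0.14, limma adjusted p 0.0589), and 0.32 under the simpler rule for decimal marks. Cyba went the other way with miR-7a, by 0.55 (SE 0.16, limma adjusted p 0.0908), higher in 4 of 4 pairs but with overlapping groups. These are 0 of 5 members against 2.93% of 12775 genes, and 2 of 5 had an unadjusted p under 0.05, against 17.6% of all genes. DESeq2 called 2 of the 5 (6.29% of all genes) and edgeR 0 (2.89%). With the block, for which same-numbered libraries deviated together, Cybb (limma adjusted p 0.002) and Cyba (limma adjusted p 0.00144) passed, 2 of 5 against 9.68% of all genes.

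With miR-29a under LPS, 0 of 5 passed against 4.9% of 13039 genes, 2 had an unadjusted p under 0.05 (21.5% of all genes), and DESeq2 called 1 (7.91%) and edgeR 0 (4.61%). Ncf4, at 118, 120.2, 93.4 and 122 CPM, lay below all 4 LPS_scramble libraries, with a difference of -0.39 (SE 0.12, limma adjusted p 0.0817). Cybb gave 0.34 (SE 0.15, limma adjusted p 0.212), and 1.34 under the simpler rule for decimal marks. The block let Ncf4 pass (limma adjusted p 0.0255), 1 of 5 against 10.7% of all genes. With miR-146a under LPS, 0 of 5 passed against 2.44% of 12381 genes, 1 had an unadjusted p under 0.05 (17.7% of all genes), and DESeq2 (5.47%) and edgeR (1.56%) called 0. That 1 was Ncf4, at -0.29 (SE 0.10, limma adjusted p 0.158), also below all LPS_scramble libraries, and the block let it pass (limma adjusted p 0.0384), 1 of 5 against 11.1% of all genes. Cybb gave a difference of -0.02 (SE 0.13) with miR-146a, and -0.70 under the simpler rule.

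Under vehicle, Cybb in VEH_miR-7a (258 ± 33.2 CPM) again lay wholly below VEH_scramble (481 ± 101 CPM; SD, n = 4 each). The log2 fold change was -0.90 (SE 0.18), the largest of any member in the 6 mimic comparisons, but its limma adjusted p of 0.0676 missed the threshold. Here 0 of 5 members passed against 0.211% of 10876 genes, 1 had an unadjusted p under 0.05 (12.6% of all genes), and DESeq2 called 1 (2.25%) and edgeR 0 (0.478%). Without VEH_miR-7a replicate 1, the library with little structural RNA, Cybb stood at -0.90 with a limma adjusted p of 0.0429. That fit called 2.2% of all genes and kept the libraries of the group with much structural RNA. With library sizes from protein-coding genes Cybb stood at -0.91 with a limma adjusted p of 0.0376, beside 0.477% of all genes called. VEH_miR-29a (0 of 5, against 0.00874% of 11447 genes) and VEH_miR-146a (0 of 5, against 2.41% of 11538 genes) had no member with an unadjusted p under 0.05, and DESeq2 and edgeR called 0. Over all genes, unadjusted p-values under 0.05 made up 10.5% and 25.4% in these comparisons, DESeq2 calls 0.909% and 11%, and edgeR calls 0.0262% and 2.97%. Their largest differences were -0.38 for Cyba with miR-29a (SE 0.18, limma adjusted p 0.481) and 0.34 for Cybb with miR-146a (SE 0.18, limma adjusted p 0.245), which turned to -2.13 under the simpler rule for decimal marks.

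The interaction, the effect of a mimic under LPS minus its effect under vehicle, was tested over 16 libraries for each mimic. No member passed: 0 of 5 for miR-7a (0.101% of 11866 genes), miR-29a (0.0166% of 12036) and miR-146a (0% of 12072). DESeq2 (0.708%, 0.15% and 0.166% of all genes in that order) and edgeR (0.126%, 0.0166% and 0%) also called 0 members. Unadjusted p-values under 0.05 were found for 2 members with miR-7a (5.55% of all genes) and for 0 with miR-29a (6.36%) and miR-146a (11.3%). The 2 were Ncf4 (-0.53, SE 0.20, limma adjusted p 0.742) and Cyba (0.56, SE 0.24, limma adjusted p 0.812). For Cybb the interactions were 0.37 (SE 0.22), 0.47 (SE 0.23) and -0.37 (SE 0.22), in the order miR-7a, then miR-29a and miR-146a. Under the simpler rule for decimal marks they were 1.22, 3.09 and 1.37 in the same order, none of them called, so that the sign turned for miR-146a. These tests set each mimic against scramble, and no mimic was tested against another.

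A ratio of 2 transcripts within a library needs no library size, and the Cybb to Cyba ratio set the membrane pair against each other. In VEH_scramble the log2 ratio of counts was 0.48, -0.60, -0.72 and -0.32, and in LPS_scramble 1.72, 1.70, 1.14 and 1.55. The group means differed by 1.82 on the log2 scale, and LPS lay above vehicle without overlap with each of the other mimics too, by 1.62 (miR-7a), 1.96 (miR-29a) and 0.99 (miR-146a). VEH_miR-7a stood lowest and closest together, at -1.12, -1.21, -1.23 and -1.19. LPS_miR-7a, at 0.85, 0.58, -0.24 and 0.53, lay below every LPS_scramble library, and the 2 differences between miR-7a and scramble were -1.10 under LPS and -0.90 under vehicle. Each of these 6 contrasts gave a two-sided exact permutation p of 0.0286, the smallest that 4 against 4 libraries allow, and 0.0952 after adjustment over the 20 ratio tests. So none passed the adjusted threshold, for which at least 12 of the 20 tests would have had to reach that smallest p. Under the simpler rule for decimal marks the LPS difference of this ratio was -0.67 (scramble), -0.04 (miR-7a), 1.96 (miR-29a) and 0.15 (miR-146a). It gave -0.27 for miR-7a against scramble under LPS and -0.90 under vehicle, and the 6 exact permutation p-values were then 0.286 to 1 after adjustment. For miR-29a and miR-146a against scramble, the Cybb to Cyba differences had exact adjusted p-values from 0.176 to 0.481.

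The ratio of Ncf1 to Ncf4, both cytosolic, varied less. Its group means lay between 0.69 (VEH_miR-7a) and 1.42 (VEH_miR-146a) on the log2 scale, and the groups overlapped in all 10 comparisons. LPS minus vehicle was -0.45 with scramble and 0.40 with miR-7a, with exact permutation p-values of 0.114 and 0.0571 before adjustment.

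**Figure D4:**
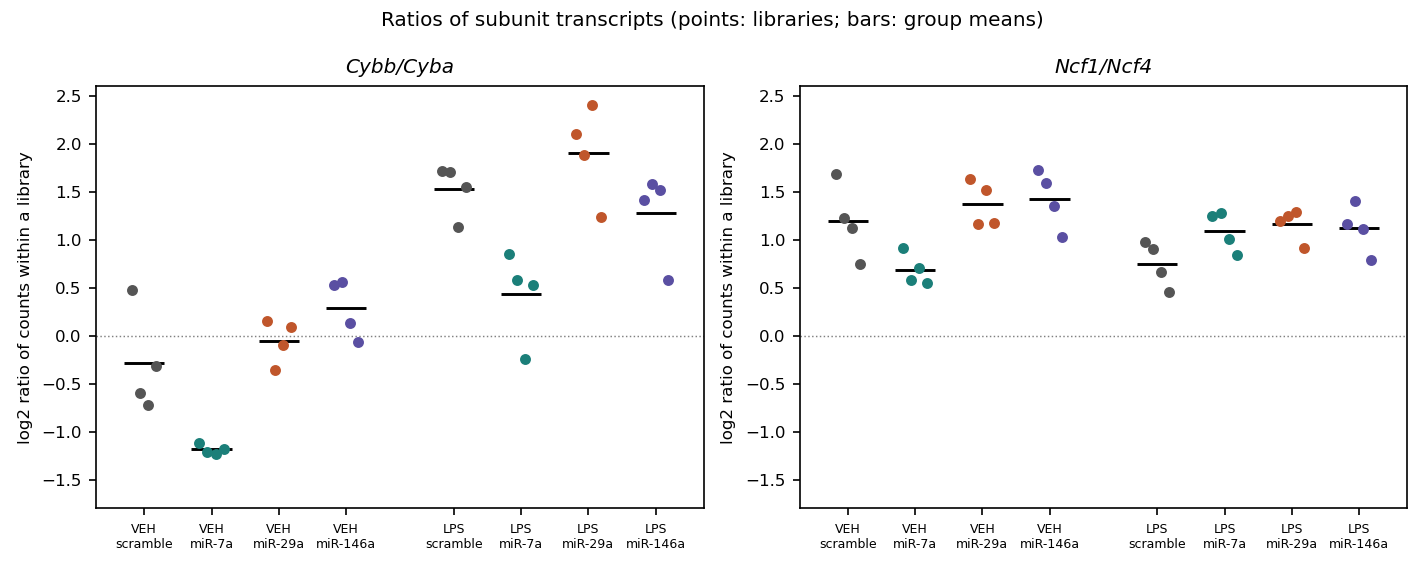
Log2 ratios of counts within a library (vertical axes) for Cybb to Cyba and Ncf1 to Ncf4 in the 8 groups. Points are libraries and bars are group means; the Cybb to Cyba ratio is higher in LPS than in vehicle libraries of the same mimic throughout, while the Ncf1 to Ncf4 groups overlap.

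Rac1, the widely expressed relative of Rac2, passed in no comparison, and its differences lay between -0.22 and 0.25.

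The list of 34 activators and partners of the oxidase had 32 genes in the table and 28 or 29 tested. Under LPS, 1 rose and 3 fell of 28 in scramble (18.3% of all genes were called), 0 rose and 1 fell of 29 in miR-7a (6.81%), 1 rose and 8 fell of 28 in miR-29a (26.8%), and 1 rose and 0 fell of 28 in miR-146a libraries (4.62%). These shares lie near those over all genes. With the block, 5 rose and 8 fell with scramble (26% of all genes), 2 and 11 with miR-29a (37.9%), and 1 and 1 with miR-146a (7.22%). The medians of the list were -0.17, -0.11, -0.17 and -0.09 in that order, beside medians over all genes from -0.02 to 0.02. Hvcn1, the proton channel that balances the charge the oxidase moves, fell in the scramble libraries (-0.77, SE 0.17, limma adjusted p 0.0111), the miR-7a libraries (-0.69, limma adjusted p 0.0288) and the miR-29a libraries (-0.82, limma adjusted p 0.0187). Under LPS it was higher with miR-7a than with scramble, 46.9 ± 4.47 against 27 ± 3.56 CPM (SD, n = 4 each), a log2 difference of 0.80 (limma adjusted p 0.0127). That was the 1 gene of the list called in a mimic comparison without the block. With the block under LPS, 2 were higher and 2 lower for miR-7a (9.68% of all genes), 1 and 4 for miR-29a (10.7%), and 2 and 2 for miR-146a (11.1%), each of 28. Arhgdia, a GDP dissociation inhibitor that holds Rac in the cytosol, fell with scramble (-0.59, limma adjusted p 0.0156) and with miR-29a (-0.84, limma adjusted p 0.002). With scramble, Prkca (a protein kinase C) fell as well (-0.56, limma adjusted p 0.0338), and Pik3cg (a phosphoinositide 3-kinase of leukocytes) rose (0.49, limma adjusted p 0.0277). Rap1b, a small GTPase, rose with miR-29a (0.87, limma adjusted p 0.0131) where Pik3cd fell (-0.68, limma adjusted p 0.0262), and Plcg2 (a phospholipase C) rose with miR-146a (0.49, limma adjusted p 0.0393).

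Other members of the NADPH oxidase family had very low values in these libraries. All 9 listed genes (Nox1, Nox3, Nox4, Noxo1, Noxa1, Duox1, Duox2, Duoxa1 and Duoxa2) were in the table and 0 passed the filter on low counts. The highest value of any was 2.49 CPM, reached by Nox4 and Duoxa1, which is what 3 counts come to in VEH_miR-7a replicate 2. Noxa1 was listed at 0 in all 32 libraries.

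Of 14 transcription factors known to act on oxidase promoters, 12 or 13 were tested. With scramble 2 of 12 fell under LPS and 0 rose (18.3% of all genes were called), Cebpa (-1.03, SE 0.22, limma adjusted p 0.00773) and Spi1, which encodes PU.1 (-0.76, SE 0.22, limma adjusted p 0.0354). With miR-29a, 2 rose and 4 fell of 13, against 26.8% of all genes. Cebpb rose by 0.90 (limma adjusted p 0.00327). Cebpa (-1.11), Rela (-0.86) and Spi1 (-0.83) were the 3 that fell most, with limma adjusted p-values from 0.0019 to 0.00587. With miR-7a, 1 rose and 1 fell of 13, against 6.81% of all genes, the latter Cebpa by 0.81 (limma adjusted p 0.0497). With miR-146a, 2 rose of 13, against 4.62% of all genes, among them Cebpb by 0.90 (limma adjusted p 0.00242), and 0 fell. With the block, 0 rose and 3 fell of 12 with scramble (26% of all genes), 2 and 4 of 13 with miR-29a (37.9%), and 2 and 1 of 13 with miR-146a (7.22%), so the shares with scramble and miR-29a lie near those over all genes. Between mimics under LPS, Cebpb was lower with miR-7a than with scramble (-0.85, limma adjusted p 0.0184), 1 of 13 against 2.93% of all genes. With miR-29a, 1 was higher and 1 lower of 13, against 4.9% of all genes, the latter Cux1, a repressor of Cybb (-0.48, limma adjusted p 0.0257). With the block these LPS comparisons gave 2 higher and 1 lower for miR-7a (9.68% of all genes), 1 and 3 for miR-29a (10.7%), and 0 and 2 for miR-146a (11.1%). No listed factor was called under vehicle or in an interaction (limma).

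The promoters of the membrane pair are shown because, with scramble, Cybb rose and Cyba fell under LPS. Each runs from 250 bases before to 50 bases after the start (RefSeq, GRCm38.p6), and capitals mark, on either strand, the motif of interferon-stimulated genes, a GAAA followed after any 2 bases by another GAAA. Entries for Cybb, Cyba and Ncf1 were matched by symbol, 3 of the 5 members. The start used for Cybb lies inside the span of the gene given above, which comes from another annotation (GENCODE M21).
Cybb, chrX:9469275-9469574, minus strand: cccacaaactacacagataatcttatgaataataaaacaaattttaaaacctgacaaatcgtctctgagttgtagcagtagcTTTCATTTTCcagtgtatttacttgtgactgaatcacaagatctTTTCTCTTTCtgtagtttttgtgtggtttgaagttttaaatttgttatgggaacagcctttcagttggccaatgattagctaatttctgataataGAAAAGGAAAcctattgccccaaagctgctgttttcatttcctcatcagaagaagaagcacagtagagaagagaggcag
Cyba, chr8:122432891-122433190, minus strand: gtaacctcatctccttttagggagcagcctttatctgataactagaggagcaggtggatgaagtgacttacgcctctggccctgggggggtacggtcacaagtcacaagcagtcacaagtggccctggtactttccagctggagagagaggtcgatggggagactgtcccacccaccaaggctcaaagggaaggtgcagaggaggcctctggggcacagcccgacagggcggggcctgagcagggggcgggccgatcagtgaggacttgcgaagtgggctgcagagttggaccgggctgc
Cybb held 3 matches to this motif, of which 1 on the gene strand began at position -29 from the start, and Ncf1 held 1 on the gene strand at position -82. Cyba held 0. This motif was found in 3.44% of 32851 promoters of the same length. The PU.1 core GAGGAA occurred in Cybb, on the opposite strand, and not in the Cyba or Ncf1 windows, against 28.3% of all promoters. The AP-1 motif TGANTCA occurred in Cybb only of the 3, against 7.81% of all. All motifs were searched on both strands, and matches to different motifs did not overlap in these 3 windows. The motifs were chosen with the Cybb sequence already seen, a match is a run of letters, and no binding was measured. The share of G and C was 35.3% in the Cybb window and 60.7% in the Cyba window, against a median of 52.7% over all.

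The genes most like each member were taken by Pearson correlation of log2 CPM over the 32 libraries, among 8724 genes with certain values and a mean of at least 10 CPM. The libraries share conditions and range widely in depth, so these values are descriptions. For Cybb they were Kdr (0.92), Adgre1 (0.90), which encodes the macrophage marker F4/80, and Vmp1 (0.89), an autophagy protein. Adgre1 had a median of 573 CPM in vehicle and 1011 CPM in LPS libraries. For Cyba they were Fam195b (0.83), Map1lc3a (0.82), an LC3 protein of autophagy, and Plekhb2 (0.81). Map1lc3a had medians of 45.7 CPM under vehicle and 25.3 CPM under LPS. For Rac2 they were Zbtb7b (0.88), Hpcal1 (0.85) and Atf5 (0.84). Ncf1 (Supt5 0.77, Neo1 0.75 and Flot2 0.74) and Ncf4 (Gm20634 0.77, U2af1l4 0.77 and Tor2a 0.75) had less similar partners. Among the members themselves, Cybb and Cyba had a correlation of -0.74, Ncf4 and Rac2 of 0.63 and Cybb and Rac2 of 0.60. Ncf1 and Ncf4 had one of -0.04.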

How the data were processed

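The authors aligned single-end total RNA reads (ribosomal RNA depleted) with nf-core rnaseq to GRCm38 and deposited estimated counts per gene, not normalized. The deposited values have lost their decimal marks. Of 590874 values above 0, 28.6% were read as carrying 1 to 3 lost decimals, 95.6% of these with 3. Each reading was weighed by its last digits and by the level of the gene in its group, with the groups tied to each other, so the group labels enter the restoration. Genes with a value read with a posterior under 0.9 in the libraries compared (1.66% of values) were left out of the tests. All values of the 5 members passed. This step was tested on simulated data.

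Counts were normalized by TMM and filtered with filterByExpr in edgeR 4.0.16, and tested with limma-voom (limma 3.58.1, R 4.3.3) on the 8 libraries of each comparison or the 16 of each interaction, with Benjamini-Hochberg adjustment over all genes tested and a threshold of 0.05. CPM uses the same factors. Log2 CPM adds 0.5 CPM, and ratios add 0.5 counts. Ratios were tested by two-sided exact permutation of 4 against 4 libraries (70 permutations), adjusted over 20 tests. The named genes are the 5 members, Rac1, of each list the up to 3 called genes that changed most in each direction, and the 3 genes most correlated with each member. Some genes under this rule are not reported here. The members and lists were chosen with earlier results of these data known. Replicates are numbered 1 to 4 and stem from independent experiments, but the labels do not say that a number marks a shared day. Same-numbered libraries were checked over 8724 genes, and every pair correlated above 0.1 in 7 of 10 comparisons, where the block is given beside each call of a member and each count of a list that it changes. It fell short for LPS against vehicle with miR-7a and for miR-7a and miR-146a against scramble under vehicle. Alternatives were no filter, RLE factors, protein-coding library sizes, edgeR, DESeq2 1.42.0, all 32 libraries in one fit, the replicate block, 3 other treatments of the decimal marks, and each library left out in turn. Totals of 1.20e+06 to 2.08e+07 counts set the precision, and intervals from counts would cover counting error only.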

Additional observations from a re-analysis of the deposited data

Results flagged for a closer look

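In 56 sets of 4 libraries (the 5 transcripts and the 2 ratios in each of the 8 groups), 4 had a library whose gap to the nearest of the others, divided by the range, was above Dixon's 95% critical value. Chance flags about 1 in 20 such sets. Cyba in VEH_miR-7a stood at 693 CPM in replicate 4, against 544 to 558 CPM in the other 3. Ncf1 in VEH_miR-146a stood at 269.5 CPM in replicate 1, against 224 to 231 CPM. Ncf4 in LPS_miR-29a stood at 93.4 CPM in replicate 3, against 118 to 122 CPM. The log2 ratio of Cybb to Cyba in LPS_miR-146a was 0.58 in replicate 4, against 1.41 to 1.58 in the other 3. Of the 15 interaction tests of the members, 0 passed after adjustment (limma), and 2 had an unadjusted p under 0.05.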

How the results depend on the processing

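Cybb rose under LPS with each mimic in all 8 fits that left out 1 of the libraries. The limma adjusted p-values went up to 0.0497, with miR-146a. Cybb also rose and was called under 8 of 10 other alternatives. All of these fits used the same restored Cybb values. They could therefore not test the restoration, on which the direction rests. The exceptions were the values as deposited and the simpler rule for decimal marks, under which none of the 4 was called. With scramble Cybb then stood at -0.85 as deposited and at -1.53 under the simpler rule, which also gave -0.31 with miR-7a and -0.17 with miR-146a. The other values kept their sign without being called, 1.27 (miR-7a), 6.46 (miR-29a) and 0.69 (miR-146a) as deposited, and 1.54 with miR-29a under the simpler rule.

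Member counts are given with the share of all genes called in the same fit. With scramble, 2 members were called under LPS in the reported fit (18.3%), 3 with no filter (6.74%), 4 by DESeq2 (22.3%), with all 32 libraries in one fit (23%) or with the replicate block (26%), 0 as deposited (0.753%) and 1 under the simpler rule (6.63%). With miR-7a the reported 1 (6.81%) became 2 with no filter (31.3%) or with the block (14.8%), and 0 under both treatments of the decimal marks (1.95% and 2.19%). With miR-29a the 1 (26.8%) became 2 with protein-coding library sizes (29.6%), DESeq2 (30.5%), the block (37.9%) or a posterior minimum of 0.99 (27.7%), and 0 under those treatments (1.62% and 15.5%). With miR-146a the 1 (4.62%) became 2 with no filter (2.19%), protein-coding sizes (5.33%), DESeq2 (7.04%), the block (7.22%) or the minimum of 0.99 (5.11%), 3 with all libraries (7.16%), and 0 under those treatments (0.258% and 0.862%). For miR-7a against scramble under LPS, the 0 (2.93%) became 1 with no filter (1.39%), protein-coding sizes (3.51%), all libraries (3.76%) or the minimum of 0.99 (3.16%), and 2 with DESeq2 (6.29%) or the block (9.68%). For miR-29a under LPS the 0 (4.9%) became 1 with DESeq2 (7.91%) or the block (10.7%), and for miR-146a the 0 (2.44%) became 1 with the block (11.1%). For miR-7a under vehicle the 0 (0.211%) became 1 (Cybb) with no filter (0.197%), protein-coding sizes (0.477%), DESeq2 (2.25%), all libraries (1.46%), the block (3.13%) or the minimum of 0.99 (0.343%). The cause was not tested.

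Leaving out 1 library gave 1 to 2 called members under LPS with scramble (9.61% to 23.2% of all genes), miR-7a (3.72% to 7.31%) and miR-29a (17.8% to 30.1%), and 1 to 3 with miR-146a (2.36% to 4.14%). It gave 0 to 1 for miR-7a against scramble under LPS (0.549% to 3.07%) and under vehicle (0.1% to 2.2%). The other 7 comparisons gave 0. Against scramble under LPS their shares were 1.36% to 5.45% (miR-29a) and 0.247% to 2.17% (miR-146a). Under vehicle they were 0% to 0.0869% (miR-29a) and 0% to 10.6% (miR-146a). For the interactions they were 0.0657% to 1.12% (miR-7a), 0% to 0.0248% (miR-29a) and 0% to 0.677% (miR-146a). Cyba with scramble lost its call without LPS_scramble replicate 1 (adjusted p 0.0539). Calls gained were Rac2 with miR-7a without LPS_miR-7a replicate 1 (0.0278), Cyba with miR-29a without LPS_miR-29a replicate 4 (0.0276), and Cybb for miR-7a under LPS without LPS_miR-7a replicate 4 (0.0386) and under vehicle without VEH_miR-7a replicate 1 (0.0429). With miR-146a, Ncf4 (0.0477) and Rac2 (0.0211) gained a call without VEH_miR-146a replicate 4, and Rac2 (0.0457) without LPS_miR-146a replicate 4. These are limma adjusted p-values.

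Where same-numbered libraries did not all deviate together, the replicate block called Rac2 under LPS with miR-7a (limma adjusted p 0.0389) and Cybb for miR-7a under vehicle (0.00466). In those 3 comparisons 4, 5 and 5 of 8 libraries correlated best with their own number. The block changed no call of a member beyond those given here and in the report. Protein-coding library sizes raised 38 of 40 group means of CPM by more than 1 SD. Those totals leave out all other genes, not only structural RNA, and the part of each was not tested. In the shallowest library 3 counts are 3.90 CPM, far below every member.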
